A study of Mus musculus with 12 samples.

Results

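The array labelled Esx1 was set against the 5 arrays whose profiles were most like it, labelled Pax6, Crebzf, Pdx1, Sox11 and Zfp451. The genes described were those whose level on the Esx1-labelled array lay beyond all 5 reference arrays by 1 log2 or more, a 2-fold difference, with the brighter side well above background by the scanner software's flag. Of 20915 genes measured, 252 met this rule, 68 higher and 184 lower on the Esx1-labelled array. The 6 arrays and the rule were picked from values of these same arrays, so the differences from the 5 that chose these genes are given as a description and none was tested.

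The samples were neural progenitor cells of the 129/Ola mouse strain, and RNA from each culture was hybridised to a one-colour Agilent array, 12 arrays in all, 4 on each of 3 slides. Per the labels, 10 cultures received a retroviral vector (pMXs-IRESNeo) carrying the reading frame of 1 transcription factor, namely Esx1, Pax6, Crebzf, Pdx1, Sox11, Zfp451, Hmga2, Gatad2b, Etv6 or Nfxl1. An EGFP culture carried the same vector with the fluorescent protein, and a mock culture had its handling not given in the sources used here. About 95% of infected cells expressed the insert, G418 was added at 24 h to select infected cells, the cells were collected at 72 h, and 0.25 µg of RNA was labelled. Each group held 1 array from 1 culture, so a difference between cultures, transgenes or hybridisations cannot be told apart, and no p-value or standard deviation is given. The Esx1-labelled array lay on slide 2 with Gatad2b, Etv6 and Nfxl1. Pax6 lay on slide 1 with Hmga2, EGFP and mock, and Crebzf, Pdx1, Sox11 and Zfp451 shared slide 3.

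Esx1 is a homeobox gene on the X chromosome, known in the mouse for its expression in placenta and testis, and its protein binds DNA through a paired-like homeodomain. Prmt1, the main arginine methyltransferase that places asymmetric dimethyl marks, modifies histones and many RNA-binding proteins, Taf15 among them. Lmnb1 encodes lamin B1, a filament protein of the nuclear lamina that lines the inner nuclear membrane, and neural progenitors are known to need it for normal division and brain growth.

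A level is the log2 of the background-subtracted spot signal minus the log2 of that array's 75th percentile, so 0 is the level that 75% of spots stay under. The Esx1 probe itself did not mark the array by its label. It stood at -1.43 on the Esx1-labelled array, at -1.97 on Pax6, -1.25 on Crebzf, -1.12 on Pdx1, -1.31 on Sox11 and -1.27 on Zfp451, and at -0.62 on EGFP and -0.57 on mock. The Esx1-labelled array was therefore the 11th highest of 12 for this probe. Whether the probe lies inside the reading frame that the vector carries was not given in the sources used here, so this value does not settle the label. The reference arrays were alike in this: the Pdx1 probe was not well above background on the Pdx1 array, the Crebzf probe was the 11th highest of 12 on its own array, the 4 Zfp451 probes ranked 8 to 10 and the 6 Sox11 probes 5 to 12. The 3 Pax6 probes ranked 1, 4 and 6 on the Pax6 array. The probe that ranked 1 was dim, at -5.17 on Pax6 and -5.19 on mock, and was well above background on 2 of the 12 arrays. The label "neural progenitor" was checked on 17 markers, of which 16 were well above background on the Esx1-labelled array, among them Vim at 6.29, Nes at 2.06 and Sox2 at 1.11. Olig2 was not well above background on it, and the median level of the 17 was -0.95. Of all 20915 genes measured, 18605 were well above background on the same array. So were 14 of 14 fibroblast and matrix genes and 13 of 13 muscle genes, so this count does not tell cell types apart. Vim ranged from 6.19 to 6.48 on the 5 reference arrays, and none of the 17 markers met the rule in either direction.

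The promoters of genes lower on the Esx1-labelled array are shown first, because homeodomain proteins act at such regions. RefSeq promoter windows on the GRCm38.p6 build were at hand for 34 of the 68 higher and 62 of the 184 lower genes. Those of Prmt1 and of 3 genes that were lower by 2 probes each (Sema4c, Metrn and U2af1) are printed 5′ to 3′ over the 250 bases before the annotated start. They lie at chr7:44986421-44986670 (minus strand) for Prmt1, chr1:36558382-36558631 (minus strand) for Sema4c, chr17:25797046-25797295 (minus strand) for Metrn and chr17:31658765-31659014 (minus strand) for U2af1. Capitals mark GGGCGG on either strand, the GC box of many housekeeping promoters.
Prmt1: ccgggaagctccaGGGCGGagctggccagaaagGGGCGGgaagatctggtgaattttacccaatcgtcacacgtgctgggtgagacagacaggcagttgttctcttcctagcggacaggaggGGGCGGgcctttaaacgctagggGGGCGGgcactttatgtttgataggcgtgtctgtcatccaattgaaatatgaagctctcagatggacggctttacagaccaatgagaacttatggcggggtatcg
Sema4c: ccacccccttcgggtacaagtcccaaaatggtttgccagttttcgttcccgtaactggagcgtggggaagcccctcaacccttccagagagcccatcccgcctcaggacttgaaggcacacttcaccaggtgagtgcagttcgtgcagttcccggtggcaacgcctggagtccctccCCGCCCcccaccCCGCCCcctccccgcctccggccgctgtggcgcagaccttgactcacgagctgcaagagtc
Metrn: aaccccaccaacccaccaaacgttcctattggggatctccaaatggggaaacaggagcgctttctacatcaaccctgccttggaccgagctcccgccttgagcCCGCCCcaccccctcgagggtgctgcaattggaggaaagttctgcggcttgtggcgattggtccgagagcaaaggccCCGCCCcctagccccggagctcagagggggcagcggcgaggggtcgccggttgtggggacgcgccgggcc
U2af1: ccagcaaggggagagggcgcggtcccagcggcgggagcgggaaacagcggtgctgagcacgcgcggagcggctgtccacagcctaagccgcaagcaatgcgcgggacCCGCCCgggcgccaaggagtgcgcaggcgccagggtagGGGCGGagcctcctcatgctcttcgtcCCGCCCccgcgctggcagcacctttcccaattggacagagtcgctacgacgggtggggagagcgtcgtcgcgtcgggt

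Prmt1 held 4 such GC boxes, Sema4c and Metrn 2 each, and U2af1 3. The windows of Eef2, also lower by more than 1 probe, and of Gar1 were not printed and held 0 each. None of the 4 printed windows held TAATTA, a core that homeodomains of the paired-like class bind. Across the lower genes TAATTA was found in 3 of 62 windows (4.84%), against 510 of 12729 windows of all genes measured (4.01%), and in 4 of 34 windows of the higher genes (11.8%). The paired form TAATNNNATTA was found in 0 of the 34 and 0 of the 62 windows, against 42 of the 12729 (0.33%). Both motifs read the same on either strand apart from the N bases, both strands were searched, and a match is a string of letters and not a bound site. GGGCGG stood in 34 of the 62 lower windows (54.8%) and 9 of the 34 higher windows (26.5%), against 57% of all windows. Median GC content of the windows was 58% for the lower genes, 48.4% for the higher genes and 58.4% for all genes measured.

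Of the 3 lower genes with TAATTA, Ackr4, an atypical chemokine receptor that scavenges its ligands, was the one named and with little difference between slides 1 and 2. Of the 4 higher genes with it, Acod1, which makes itaconate in macrophages, had the widest gap. Their windows are chr9:104126644-104126893 (minus strand) for Ackr4 and chr14:103046762-103047011 (plus strand) for Acod1 on GRCm38.p6, with TAATTA in capitals.
Ackr4: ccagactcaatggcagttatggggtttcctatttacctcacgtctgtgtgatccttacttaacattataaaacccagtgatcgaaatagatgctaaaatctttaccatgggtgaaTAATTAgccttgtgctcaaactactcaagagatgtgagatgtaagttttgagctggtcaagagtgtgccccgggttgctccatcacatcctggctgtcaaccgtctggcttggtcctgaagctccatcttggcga
Acod1: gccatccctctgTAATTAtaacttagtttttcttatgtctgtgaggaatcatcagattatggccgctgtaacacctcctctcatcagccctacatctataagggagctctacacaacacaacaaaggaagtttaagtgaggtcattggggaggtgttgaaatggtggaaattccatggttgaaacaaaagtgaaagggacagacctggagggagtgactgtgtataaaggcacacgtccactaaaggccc

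TAATTA began at -135 from the annotated start of Ackr4 and at -238 from that of Acod1. The gene with it nearest its start was Il1f8, at -23.

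Setting each of the 6 arrays in turn against the 5 others put these counts on a scale. The 68 higher genes of the Esx1-labelled array were 0.325% of the genes measured and the 184 lower genes were 0.88%. The Pax6 array had 150 higher (0.717%) and 127 lower genes (0.607%) by the same rule. The higher counts on slide 3 were 72 on Crebzf (0.344%), 64 on Pdx1 (0.306%), 53 on Sox11 (0.253%) and 45 on Zfp451 (0.215%), so the Esx1 count of higher genes was close to theirs. The lower counts there were 0 on Crebzf (0%), 1 on Pdx1 (0.00478%), 0 on Sox11 (0%) and 0 on Zfp451 (0%), so lower genes were numerous on the Esx1-labelled and Pax6 arrays alone among the 6. Those are also the 2 arrays that shared a slide with none of the other 5, so in these counts slide and transgene cannot be told apart.

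**Figure D1:**
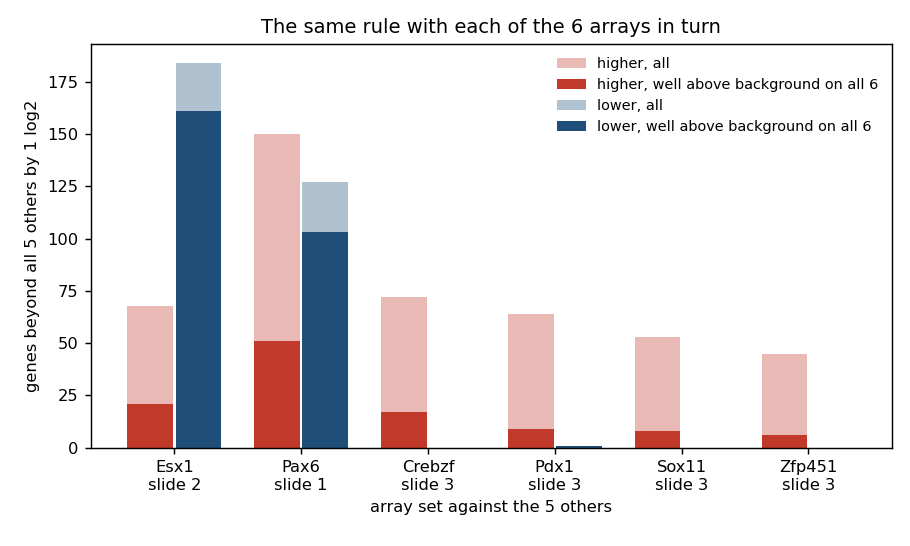
Number of genes beyond all 5 other arrays by 1 log2 (vertical axis) when each of the 6 arrays (horizontal axis) is set against the rest, higher in red and lower in blue. The solid part of each bar counts genes well above background on all 6 arrays, which is 161 of the 184 lower but 21 of the 68 higher genes on the Esx1-labelled array.

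The array labels can also be read through pairs of arrays. Genes at least 1 log2 apart numbered 1364 between the Esx1-labelled and Pax6 arrays, and 593, 576, 546 and 560 between it and Crebzf, Pdx1, Sox11 and Zfp451. Pairs within slide 3 differed at 150 to 240 genes. Over all genes measured, the median of the Esx1-labelled array minus the median of the 5 was -0.0010 log2, a value that scaling each array to its own 75th percentile holds near 0.

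Prmt1 and Lmnb1 were bright on all 12 arrays and were lower on the Esx1-labelled array than on any of the other 11 arrays. Prmt1 stood at 2.87 on it, against 4.39 on Pax6, 4.53 on Crebzf, 4.51 on Pdx1, 4.48 on Sox11 and 4.49 on Zfp451. It stood at 5.60, 5.59 and 5.65 on Gatad2b, Etv6 and Nfxl1 of the same slide, and at 5.42, 5.56 and 5.56 on EGFP, mock and Hmga2. The Esx1-labelled array, the 5 reference arrays and the remaining 6 did not overlap: the 5 reference arrays lay 2.01-fold below the mean of EGFP and mock, and the Esx1-labelled array 3.05-fold below the mean of the 5 and 6.13-fold below the controls. The Prmt1 probe lies on chromosome 7 at 41154450 to 41154509 of the mm7 build, the one the array files use. Lmnb1 stood at 1.08 on the Esx1-labelled array, against 2.54 on Pax6, 2.48 on Crebzf, 2.46 on Pdx1, 2.46 on Sox11 and 2.73 on Zfp451. It stood at 3.43, 3.60 and 3.42 on the 3 arrays of the same slide and at 3.43, 3.51 and 3.67 on EGFP, mock and Hmga2. Its order was the same as that of Prmt1, with the Esx1-labelled array 2.74-fold below the mean of the 5 and 5.24-fold below the controls. Each gene was read by 1 probe, and that probe's slide 2 shift, the mean of Gatad2b, Etv6 and Nfxl1 minus that of EGFP, mock and Hmga2, was 0.10 for Prmt1 and -0.05 for Lmnb1.

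The other genes on the lists of these 2 did not differ at the same size. Of 12 arginine methylation genes measured, Prmt1 alone met the rule, and Prmt5, the main enzyme of symmetric marks, stood at 2.22 on the Esx1-labelled array against 1.99 to 2.20 on the 5. The list's median difference from the median of the 5 was 0.04 log2. Of 15 genes of the lamina and inner envelope, Lmnb1 alone met it, and the list's median difference was 0.04. The other B-type lamin gene, Lmnb2, stood at -1.85 against -1.20 to -1.03. It was lower than all 5, by 0.65 log2 from the nearest array, which is short of the 1 log2 gap. Of all genes measured 0.88% met the rule as lower, so lists of this size would mostly hold no further gene.

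Of the RNA-binding proteins of ribonucleoproteins, a list of 20 genes with a median difference of 0.07, 1 gene met the rule on the higher side. This was Taf15, known for its part in transcription and RNA processing, and it was higher by 1 of 2 probes, at 2.60 against 1.45, 1.23, 1.48, 1.47 and 1.07, 2.40-fold above the mean of the 5. The slide mates stood at 2.35, 2.06 and 1.92, EGFP, mock and Hmga2 at 1.56, 1.77 and 1.89, and the gap of Taf15 was 0.76 log2 once the slide 2 shift was subtracted. Its second probe stood at -2.31 against -2.61 to -1.86 and did not separate the arrays.

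The rule used 1 probe a gene, so the other probes of the same genes can be read beside it. Among lower genes, 22 had another probe that was well above background on all 5 reference arrays, 27 probes in all. Of these 27, 19 lay on the lower side of the median of the 5, 12 lay below all 5 and 8 lay below all 5 by 1 log2. Of the 8908 other probes of all genes that met the same requirement, 45.3%, 25.7% and 0.909% did so. Among higher genes, 9 had another probe well above background on the Esx1-labelled array, 10 probes in all, of which 7 lay on the higher side, 2 above all 5 and 0 above all 5 by 1 log2. Over all genes these shares were 56.3%, 28.7% and 0.492% of 9558 other probes, so the second probes of the higher genes stood near the background. The requirement was on the brighter side of each direction, which by itself favours probes that lie on that side. Some other probes of lower genes lay above all 5. These included the second probes of Map3k10 (0.05 against -0.89 to -0.48), Fzd7 (-0.78 against -1.57 to -1.14) and Elf4 (-4.85 against -5.65 to -5.28). Among the genes with another probe below all 5 by 1 log2 were Sema4c, Metrn, Qsox1, Eef2, U2af1, Cyp39a1 and Zswim9.

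Sema4c, a transmembrane semaphorin, had the widest gap of these. Its main probe (chromosome 1, 36790599 to 36790658 of mm7) stood at -1.32 on the Esx1-labelled array and at 1.09, 0.78, 0.99, 0.87 and 0.90 on Pax6, Crebzf, Pdx1, Sox11 and Zfp451. The 6 remaining arrays lay between 0.69 and 0.80, so the Esx1-labelled array stood apart from 11 arrays that differed little, 4.75-fold below the mean of the 5. The second probe stood at -2.72 against -0.99 to -0.74. Metrn, a secreted factor known for neurite growth and glial differentiation, stood at 0.06 against 1.68, 1.91, 1.88, 1.83 and 1.88, and its second probe at -0.85 against 0.90 to 1.14. That was 3.42-fold below the mean of the 5 by the main probe, with the other 6 arrays higher still at 2.22 to 2.48.

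Eef2, the factor that moves the ribosome along mRNA, was lower by all 3 probes, of which 2 passed the gap. Its main probe stood at 4.16 against 5.39, 5.54, 5.60, 5.53 and 5.40, 2.51-fold below the mean of the 5, and the other 6 arrays lay between 5.42 and 5.61. The other probes stood at 2.55 against 3.85 to 4.03 and at -1.33 against -0.61 to -0.37. U2af1, a splicing factor subunit that reads the end of introns, stood at 2.68 against 3.74, 3.90, 3.90, 3.83 and 3.86, and its second probe at -0.91 against 0.28 to 0.55. Qsox1, which forms disulfide bonds in secreted proteins, stood at -2.20 against -0.71 to -0.50 and by its second probe at -3.85 against -2.40 to -2.23. Cyp39a1, an oxysterol hydroxylase, stood at -1.72 against -0.45 to -0.29 and by its second probe at -2.17 against -1.02 to -0.85, but on this gene the 6 arrays outside the set were as low as the Esx1-labelled array, at -2.33 to -1.94. Zswim9 stood at -2.81 against -1.68 to -1.58, and by its second probe at -5.68 against -4.67 to -4.22. The 6 arrays outside the set stood at -2.76 to -2.54 and at -5.52 to -4.92 by these probes, below all 5 as well. The third probe of Zswim9 was well above background on 4 of the 6 arrays of the set and did not separate them.

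Other lower genes that lay on a list were single members of it. Gar1, a protein of the box H/ACA particles that guide pseudouridylation, stood at -0.35 against 1.04, 1.05, 1.19, 1.14 and 1.15, while the other 6 arrays stood between 2.49 and 2.73. It was 2.77-fold below the mean of the 5 and 7.73-fold below the controls. Of 17 ribosome biogenesis genes, Gar1 alone met the rule. Nucleolin (Ncl) of that list stood at 4.83 against 5.77 to 5.95, short of the gap, and the list's median difference was -0.17. Pola1, the catalytic subunit of DNA polymerase alpha, stood at 0.71 against 1.86, 2.08, 2.03, 2.04 and 2.15 and was the 1 gene of 25 DNA replication genes to meet the rule; its gap was 0.89 once the slide 2 shift was subtracted. The replication list's median difference was 0.02, and 0 of 21 mitosis genes met the rule. Myrf, a regulator of myelin genes, stood at -5.87 against -4.60 to -3.98 and was the 1 lower gene among 11 oligodendrocyte lineage genes measured. Its slide mates stood as low, at -6.37, -5.87 and -6.33, and its gap was 0.53 once the slide 2 shift was subtracted.

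Of the 31 lists, 24 held no gene that met the rule, and the list medians lay between -0.28 (hypoxia and glycolysis) and 0.17 (Hox), beside -0.0010 for all genes measured. The list of placenta and trophoblast genes, from a tissue where Esx1 is known to act, had 12 measured genes, 8 well above background on the Esx1-labelled array, and 0 that met the rule. The germ line and pluripotency list had 0 of 7. Lists for neurons, astrocytes, fibroblasts, muscle, epithelium and endothelium or blood also held 0, with medians from -0.12 to 0.11. Over all genes measured, 0.325% met the rule as higher and 0.88% as lower. At such shares lists of this size, the mitosis and interferon response lists included, would mostly hold 0. These zeros, and the lack of further members in the lists above, therefore say little about the genes listed.

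**Figure D2:**
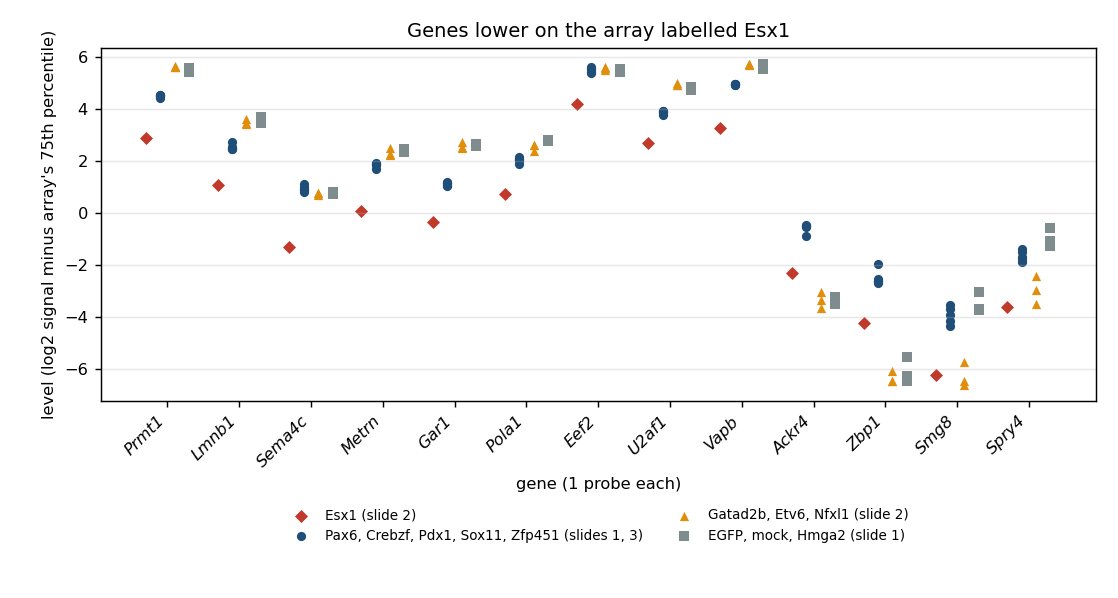
Level of 13 genes lower on the Esx1-labelled array (vertical axis, log2 signal minus the array's 75th percentile) on each of the 12 arrays, 1 point an array, with the array sets side by side for each gene. Prmt1, Lmnb1, Metrn, Gar1 and Pola1 are lowest on the Esx1-labelled array (red) and highest on the arrays outside the set (orange and grey), whereas for Smg8 and Spry4 the other arrays of slide 2 (orange) are low as well.

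The lower genes fell into sets when read on the arrays that the rule did not use. In 78 of the 184 the slide 2 shift was itself -1 log2 or less, a size reached by 215 of all 20915 genes measured (1.03%). In 73 the shift was under 0.5 log2 either way, 32 lay between -1 and -0.5, and 1 lay at 0.5 or above. Of the 78, 14 had a gene symbol and 64 were clones, predicted genes or receptors of large families, whereas 55 of the 73 had a symbol of their own. For those 78 the mean of the 3 arrays that shared the slide but not the transgene was low too, so slide and transgene cannot be told apart. Lower than all 11 other arrays by 1 log2 were 37 of the 184, of which 31 belonged to the 73 and 1 to the 78.

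Genes of the first kind included several of the widest gaps. Smg8, a regulator of the kinase in nonsense-mediated decay, stood at -6.24 on the Esx1-labelled array and at -3.54, -3.93, -4.36, -4.17 and -3.69 on Pax6, Crebzf, Pdx1, Sox11 and Zfp451. Gatad2b, Etv6 and Nfxl1 were as low at -6.60, -6.46 and -5.72, whereas EGFP, mock and Hmga2 stood at -3.72, -3.71 and -3.03. Spry4, an inhibitor of receptor tyrosine kinase signalling, stood at -3.63 against -1.51, -1.70, -1.76, -1.91 and -1.39, with the slide mates at -3.52, -2.98 and -2.45 and slide 1 controls at -1.29 and -1.10. Its second probe stood at -4.88 against -5.16 to -4.57 and did not separate the arrays. Cep20, a centrosomal protein gene, was not well above background on the Esx1-labelled array and at least 5.11-fold lower than the mean of the 5, and Hacl1, a peroxisomal lyase gene, was 4.14-fold lower. Their slide 2 shifts were -2.36 and -2.0. Nab2, a corepressor of early growth response factors, stood at -1.02 against 0.30 to 0.85 with a shift of -1.50. For Smg8, Spry4, Cep20, Hacl1 and Nab2 the sign of the gap turned once the shift was subtracted. Pcdh12, a protocadherin, stood at -5.37 against -3.39 to -2.34 with a shift of -1.21, and its gap was 0.77 after subtraction.

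**Figure D3:**
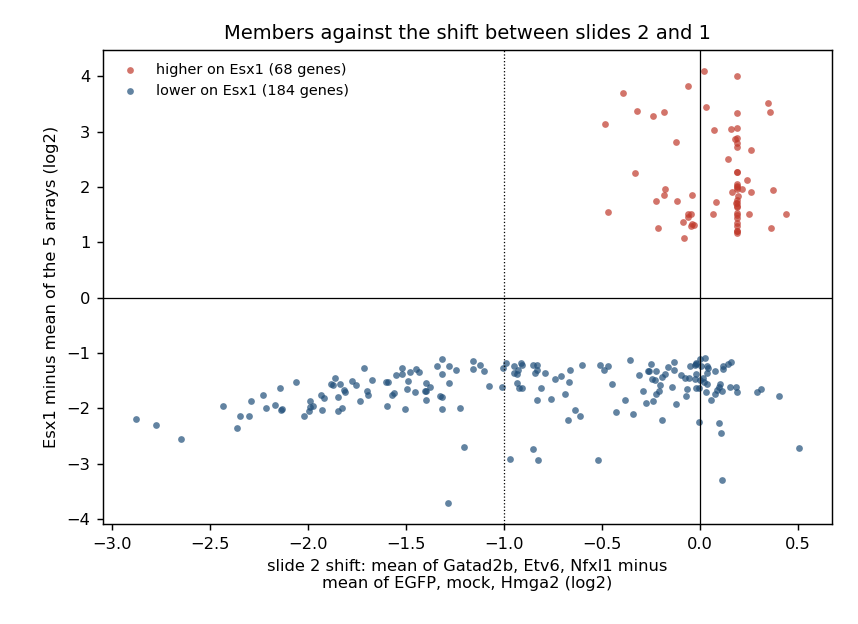
Difference of the Esx1-labelled array from the mean of the 5 reference arrays (vertical axis, log2) against the slide 2 shift (horizontal axis, log2), 1 point a gene, with the 68 higher genes in red and the 184 lower genes in blue. Of the blue points, 78 lie at or left of the dotted line at -1; the red points stacked at 0.19 are genes at the floor on all 6 arrays of the shift.

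The levels of EGFP and mock divided the genes in another way. In 114 of the 184 lower genes the median of the 5 lay within 1 log2 of the mean of EGFP and mock and the Esx1-labelled array lay 1 log2 or more below the controls; in 65 of these 114 the other 3 arrays of slide 2 were low too, with a slide 2 shift of at least 1 log2 down. In 9 more the median of the 5 was lower than the controls too and the Esx1-labelled array lower again. In 28 the Esx1-labelled array stood within 1 log2 of the controls and the median of the 5 1 log2 or more above them. In 5 the Esx1-labelled array lay between, and in 2 it lay below the controls. The other 26 were within 1 log2 of the controls on both counts. Among the 73 with little slide 2 shift these counts were 33, 3, 15, 4, 0 and 18 in the same order. Whether the Esx1-labelled culture raised the genes of the 28 less, or had fewer cells that raised them, cannot be told apart from RNA of a whole culture.

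Clec2d, a lectin-like ligand of natural killer cell receptors, was of the set that stood at the control level. It stood at -3.01 on the Esx1-labelled array, at -0.56, -0.71, -1.0, -0.73 and -1.0 on the 5, and at -2.70 and -3.0 on EGFP and mock. Gas6, a ligand of the TAM receptor tyrosine kinases, stood at 2.98 against 4.25, 4.09, 4.19, 4.13 and 4.19, with EGFP at 3.22 and mock at 3.1. Pgk2, the phosphoglycerate kinase of testis, was the widest gap of all named genes that were lower, at -6.25 against -2.83, -3.36, -3.77, -3.03 and -3.62, with EGFP at -5.89 and mock at -5.60. Angptl7, a secreted angiopoietin-like protein gene, was not well above background on the Esx1-labelled array. It was at least 4.8-fold lower than the mean of the 5 and stood at -6.50 and -6.56 on EGFP and mock. The spots of Pgk2 and Angptl7 on the Esx1-labelled array were uneven, with a pixel SD above 30% of the pixel mean.

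Ackr4, Zbp1, Rtl5 and Tap1 took the place between. Ackr4 stood at -2.30 on the Esx1-labelled array, at -0.91, -0.50, -0.47, -0.52 and -0.55 on the 5, and at -3.24 and -3.40 on EGFP and mock. The 5 were thus 6.64-fold above the controls and the Esx1-labelled array 2.03-fold. Zbp1, a sensor of Z-form nucleic acid, was 11.5-fold above the controls on the mean of the 5 and 3.41-fold on the Esx1-labelled array. Rtl5, a gene derived from a retrotransposon, was 10.03-fold and 3.81-fold above, and Tap1, a subunit of the peptide transporter for antigen presentation, 6.07-fold and 2.84-fold. The gap of Tap1 was 1.03, and it was 0.93 with quantile normalization. Of 22 interferon response genes measured, 0 met the rule, with a median difference of 0.07.

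Further genes were lowest of all 12 arrays on the Esx1-labelled array. Usp27x, a deubiquitinase gene, stood at -6.12 against -4.22, -4.25, -4.24, -4.36 and -4.24, with the other 6 arrays at -4.02 to -3.62. Taf2, a subunit of the general factor TFIID, stood at -4.60 against -2.93 to -2.20, but its second probe stood at -3.73 against -4.05 to -3.26. Vapb, an adaptor of the endoplasmic reticulum membrane, stood at 3.27 against 4.93, 4.92, 4.95, 4.89 and 4.95, 3.16-fold below the mean of the 5. Its other 2 probes did not separate the arrays, at -1.29 against -1.44 to -1.17 and at 0.10 against -0.16 to 0.27, and the gap was 0.49 when the 3 probes were averaged. Hmox1, the inducible heme oxygenase, stood at 0.77 against 2.09, 2.64, 2.64, 2.70 and 2.61, with the other 6 arrays at 1.90 to 2.85. Surf6, a nucleolar protein gene, stood at -0.95 against 0.54 to 0.85, and at -2.07 against -1.91 to -1.75 by its second probe. With normexp background correction the gap was under 1 log2 for Pgk2, Pcdh12, Cep20, Angptl7, Smg8, Hacl1, Usp27x, Myrf and Tap1 (0.40 to 0.84), and with all probes of a gene averaged it was under 1 for Usp27x, Spry4, Taf2, Myrf, Surf6, Vapb and Ackr4 (0.49 to 0.92). Prmt1, Lmnb1, Sema4c, Metrn, Eef2, U2af1 and Gar1 kept a gap of 1 log2 or more under each alternative run at that gap.

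The higher genes were a dimmer set. Of the 68, 21 were well above background on all 6 arrays of the set, 16 were so on 1 to 4 reference arrays and 31 on no reference array. Their median level was -4.07 on the Esx1-labelled array and the median of their means over the 5 was -6.7, near the floor to which dimmer values were raised (-6.96 to -6.45, the lowest signal well above background on each array). For the lower genes the median of the means over the 5 was -2.19. No higher gene had a slide 2 shift of 0.5 log2 or more either way, a measure that values at the floor hold near 0, and 52 of the 68 were higher than all 11 other arrays by 1 log2.

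Of the 12 named genes with the widest gaps, 7 were well above background on none of the 5 reference arrays. Plppr5, a membrane protein gene of neurons, stood at -2.75 on the Esx1-labelled array and was not well above background on any of the 5, so it was at least 16.2-fold higher. By the same bound Acod1 was at least 13.04-fold higher, Gpr143, a receptor of melanosomes, at least 10.8-fold, Hbq1a, a globin gene, at least 10.3-fold, and Bco2, a carotenoid-cleaving enzyme gene, at least 8.87-fold. Pak7, a kinase gene, was at least 6.95-fold and Tdrd6, a germ cell protein gene, at least 5.69-fold higher. Rgn, which encodes regucalcin, was measured on all 6 arrays and stood at -2.49 against -5.60, -6.21, -5.50, -6.57 and -6.16. Cd37, a tetraspanin gene of lymphocytes, Cabp1, a neuronal calcium sensor gene, H2-Oa, an antigen presentation gene, and Lce1a1, a gene of the skin's cornified layer, were measured on 1, 1, 2 and 1 of the 5 and had gaps of 2.95, 2.85, 2.80 and 2.30 log2. No second probe of these 12 genes that was well above background on the Esx1-labelled array lay above all 5. The other probes of Plppr5 and Acod1 stood at the floor of the Esx1-labelled array (-6.91) and were well above background on 0 of the 6 arrays. Those of Cd37 and H2-Oa stood at -6.43 and -6.45 on it and did not separate the arrays. Slc5a4b, at least 10.07-fold higher by 1 probe, was left out of the 12 by the rule on second probes. One of its other probes stood at -6.62 against -6.86 to -6.33, which did not separate the arrays.

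The spots of these dim genes were uneven. The pixel SD was above 30% of the pixel mean on the Esx1-labelled array in 36 of the 47 higher genes not measured on all 6 arrays, against 0.621% of the 4509 other genes in the same range of levels (-5.60 to -2.55). It was 37.2% for Acod1, 48.1% for Gpr143, 43.0% for Hbq1a, 52.0% for Bco2 and 60.0% for Pak7, but 26% for Plppr5 and 29.1% for Rgn. The spots also lay in the middle of 3 equal bands of rows in 32 of the 47 (68.1%), against 34.5% of all genes measured. The same held for the higher genes of the other arrays: their own spots were above 30% in 41.3% on Pax6 and in 86.7% to 90.6% on the 4 arrays of slide 3, and 45.3% to 79.2% of them lay in the middle band. Among the lower genes 6 of 184 spots were above 30% and 55 lay in the middle band. Pgk2, Angptl7 and Pcdh12 were among the lower genes with such a spot and drop out with uneven spots left out. With every such uneven spot left out, 26 higher genes were left; the part of spot quality in the higher levels was not tested.

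**Figure D4:**
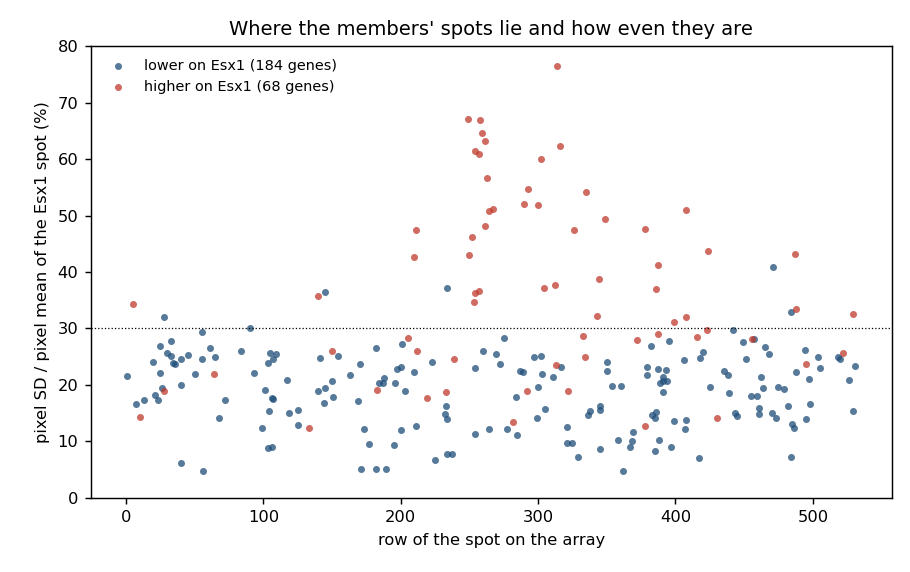
Pixel SD as a percentage of the pixel mean of each member's spot on the Esx1-labelled array (vertical axis) against its row on the array (horizontal axis, 532 rows), 1 point a gene. Of the 68 higher genes (red) 42 lie above the dotted line at 30% and of the 184 lower genes (blue) 6 do.

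The brighter higher genes were few, and they were chosen for description after their values were seen. Their spots were even except those of Dlg4 and Nepro, which passed 30% and drop out with uneven spots left out. Rmrp, the RNA of the ribonuclease MRP that cuts precursor ribosomal RNA, stood at 3.08 on the Esx1-labelled array and at 0.91, 1.11, 0.77, 0.94 and 1.04 on Pax6, Crebzf, Pdx1, Sox11 and Zfp451. The other 6 arrays stood between 1.0 and 1.70, so all 11 were at least 1.38 log2 lower. It was 4.37-fold above the mean of the 5, its spot had a pixel SD of 14.3% of the mean, and its probe lies on chromosome 4 at 43506634 to 43506693 of mm7. Tbc1d16, a regulator of Rab GTPases, stood at 0.16 against -0.99, -1.38, -1.44, -1.25 and -1.0, with the other 6 at -1.52 to -0.49. Camk2a, a kinase of synaptic plasticity, stood at -1.66 against -2.89, -3.08, -3.16, -2.91 and -3.84, all higher than EGFP at -4.87 and mock at -4.58. It was the 1 higher gene for which the median of the 5 also lay 1 log2 or more above the mean of EGFP and mock. Zfp451, at -3.84, lay less than 1 log2 above that mean. The other probe of Camk2a stood at the floor of the Esx1-labelled array (-6.91) and was well above background on 0 of the 6 arrays of the set. Dlg4, a scaffold of the postsynaptic density, stood at -1.76 against -3.89 to -3.31, with a spot at 33.4% and a second probe at -4.61 against -5.02 to -4.75.

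By their main probes Gtf2h1, Utp14a and Nepro stood near the controls, and the 5 reference arrays were below them. Gtf2h1, a subunit of the repair and transcription factor TFIIH, stood at 2.41 against 1.33, 1.29, 1.30, 1.32 and 1.38, with EGFP at 2.11, mock at 2.27 and the slide mates at 2.26, 2.04 and 2.08. Utp14a, of the complex that processes small-subunit ribosomal RNA, stood at -1.71 against -3.0, -3.13, -3.40, -3.22 and -3.12, with EGFP at -1.76 and mock at -1.72. Its second probe stood at -3.52 against -4.21 to -3.59, with EGFP at -2.31, mock at -2.39 and the slide mates at -2.24, -2.28 and -2.40. By that probe the Esx1-labelled array lay near the 5 and below the controls. Nepro, a nucleolar protein known in mouse neural progenitors, stood at -1.77 against -3.01, -3.18, -3.14, -3.06 and -3.15, with EGFP at -1.42 and mock at -1.32, on a spot at 43.3%. By the main probes of these 3 genes the 5 reference arrays were the ones that stood apart from the rest. With normexp correction the gap was under 1 log2 for H2-Oa, Pak7, Tdrd6, Lce1a1, Camk2a, Utp14a and Nepro (0.72 to 0.99), with probes averaged it was under 1 for Taf15, Dlg4 and Utp14a (0.35 to 0.85), and with the slide 2 shift subtracted it was 0.79 for Camk2a.

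**Figure D5:**
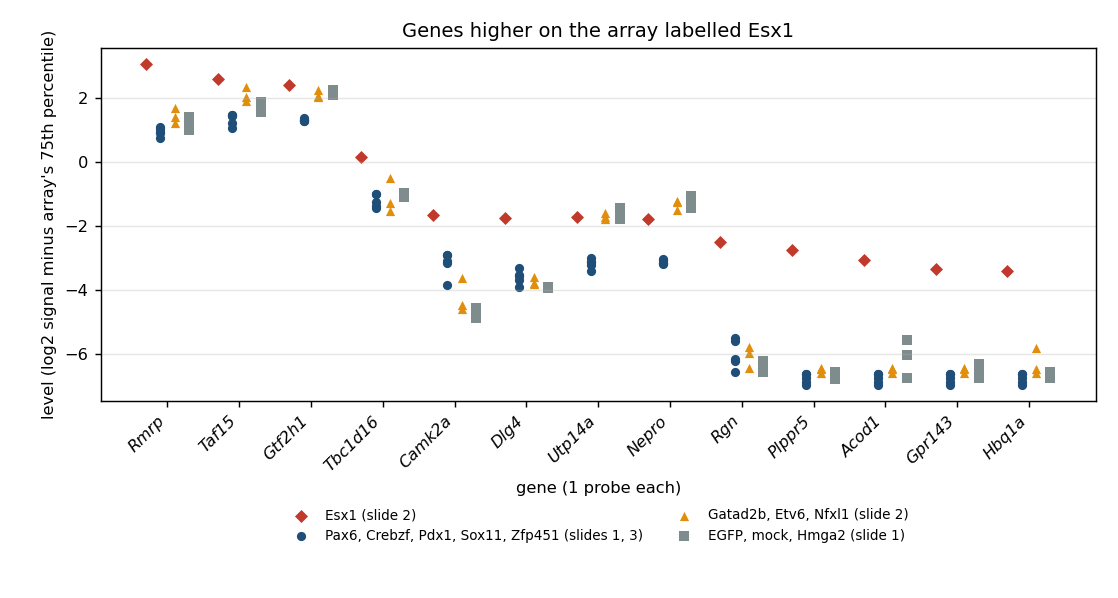
Level of 13 genes higher on the Esx1-labelled array (vertical axis, log2 signal minus the array's 75th percentile) on each of the 12 arrays, 1 point an array. Rmrp and Tbc1d16 are highest on the Esx1-labelled array (red), Gtf2h1, Utp14a and Nepro lie with the arrays outside the set (orange and grey), and Plppr5, Acod1, Gpr143 and Hbq1a lie near the lowest measurable level on nearly all other arrays.

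Genes next to the threshold show how little separates genes on either side of it. Just inside were Gtf2h1 (gap 1.03) and Ano4 (1.06) among higher genes and Pramel39 (1.003) and Cdk5r2 (1.01) among lower genes. Just outside were Pou2f2 (0.97) and Lrp3 (0.96) among higher genes and Oprm1 (0.997) and Edc4 (0.98) among lower genes. Edc4, a scaffold of mRNA decapping, stood at -0.31 on the Esx1-labelled array against 0.67 to 0.94. Oprm1, the mu opioid receptor gene, stood at -4.09 against -3.09 to -2.10.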

How the data were processed

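Each of the 12 samples had 1 array file. Per the file headers, the authors' files hold spot intensity values on the linear scale from Agilent Feature Extraction 10.7.3.1 (array design 014868, probe positions on mm7), with a fitted background surface already subtracted. The other deposited table holds the same numbers. Normalization after image analysis was not given in the sources used here.

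From the deposited intensity of 43379 spots that are no controls, log2 levels were computed for 41174 probes, after each array was scaled to its 75th percentile (823 to 1026). Values below the lowest signal well above background on an array were raised to it (-6.96 to -6.45). Between 62.5% and 69.1% of probes were well above background on an array. Flagged outlier spots (61 to 104 an array) were left out, and no spot was saturated. A gene was read by 1 probe, the brightest over all arrays. Probes were named by RefSeq accession (22944), current symbol (6664), synonym (3108) or the file's own name (8458). The precision is limited by 1 array a group, so nothing was tested.

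Named genes were the 12 widest gaps in each direction, leaving out clones, predicted genes, receptor families and genes with a contrary second probe; then Prmt1, Lmnb1 and rule genes on 31 lists; other genes were chosen after their values were seen, and 1 gene is not reported here. The rule, its members and the lists were chosen with earlier results of these data known. The rule was tried on simulated data. Python 3.11.15, numpy 2.4.6, pandas 2.3.3, R 4.3.3 and limma 3.58.1 (normexp) were used.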

Additional observations from a re-analysis of the deposited data

How the results depend on the processing

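The counts of 68 higher and 184 lower genes were 19 and 76 with normexp background correction, 105 and 193 with no floor, and 41 and 57 with a gap of 1.5 log2. Restricted to genes flagged well above background on each of the 12 arrays, they were 17 and 138. With the slide 2 shift subtracted from the Esx1-labelled array they were 92 and 88, of which 60 and 68 were among the original genes. With uneven spots left out, an alternative chosen after seeing the data, the higher count was 26. Normexp kept 19 of the 68 and 74 of the 184. Quantile normalization (68 and 184), the mean of all probes (67 and 165) and the deposited table (68 and 184) moved neither count by over 1.5 times. Leaving out 1 reference array gave 68 to 89 higher genes and 187 to 224 lower genes.

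Among named genes, the gap turned sign with the slide 2 shift subtracted for Cep20 (-0.40), Smg8 (-0.90), Hacl1 (-0.17), Spry4 (-0.27) and Nab2 (-0.18), whose probes are lower on the other slide 2 arrays too. No named gene that stayed in the other alternatives run turned sign there. Of 53 genes followed, 39 stayed with uneven spots left out. With genes restricted to those well above background on each of the 12 arrays, 33 stayed. Leaving out 1 reference array cannot narrow a gap. No paired analysis was possible because each group holds 1 array, all numbered replicate 1. Signal over background limits the dim genes: 47 of the 68 higher and 23 of the 184 lower genes were not well above background on all 6 arrays. The cause of the normexp differences was not tested.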
